A study of Mus musculus with 2 samples.

Results

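The cytotoxic granule and lysosome trafficking genes described here are 9 genes taken by name from a table of 12798 genes: Srgn, Ctsw, Cst7, Nkg7, Lamp1, Ctsd, Lyst, Rab27a and Unc13d. All 9 have a row in the table, and all 9 passed the filter on low counts together with 9644 others. They were measured in 8562 CD8 T cells from the colon of a transfer model of colitis, pooled in 1 droplet single-cell library (10x Genomics 5′ v2 chemistry), and they held between 0.529% and 0.729% of the UMIs of each sample. A UMI (unique molecular identifier) marks 1 captured RNA molecule.

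The recipients were Rag1 KO mice, which make no T or B cells of their own but keep innate lymphoid and myeloid cells. Each received 100000 wildtype naive CD4+CD45RBhighCD25- T cells, which start colitis in such hosts, and 500000 TCRb+CD8b+CD4- T cells taken from the spleen of either Bcl6fl/fl or Bcl6fl/flCd8aCre donors. LoxP sites flank part of Bcl6 in both donor genotypes, and the second also carries Cre under Cd8a control. Age at the start of transfer was given as 8 to 12 weeks, and CD8+ T cells were taken from the colon lamina propria 6 to 10 weeks later. Cells carried 8 hashtag antibodies, 4 in a group labelled Cren and 4 in a group labelled Crep. Cren was taken to mean donors without Cre (Bcl6fl/fl) and Crep donors with Cre (Bcl6fl/flCd8aCre); no source states this. Whether the hashtags stand for separate mice is not stated either, and p-values therefore reflect the spread among hashtags, which may be technical.

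Each hashtag held 900 to 1305 cells and 2635241 to 4201265 UMIs. The 12 fine clusters of the deposited annotation were spread unevenly: 96.3% of the cells of cluster 7 were Crep, with 64.7% of the cluster from Crep hashtag 4, and 97.3% of cluster 10 came from Cren hashtag 3. Markers of CD8 T cells were present throughout, with 4746 to 5835 CPM (counts scaled to a total of 1e6 UMIs) summed over 6 CD8 T cell genes, against 19.0 to 79.1 CPM over 5 CD4 T cell genes. Of 13 myeloid genes, 12 had a row and gave 367 to 500 CPM in Cren and 344 to 418 CPM in Crep. The 4 gamma-delta T cell genes with a row gave 70.5 to 165 CPM in Cren and 47.4 to 130 CPM in Crep. The part of such RNA in the results was not tested. The median mitochondrial share per cell was 0.67% to 0.805% in Cren and 0.615% to 0.65% in Crep, so it moved with the groups, and its part in the results was not tested. Bcl6 itself was higher in the hashtags labelled Crep, at 29.4 ± 3.44 CPM against 17.6 ± 2.201 CPM in Cren (SD, n = 4). A 5′ kit counts transcript starts per gene, so this level does not check the deletion, and every direction below is between groups as labelled.

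Cytotoxic T cells store perforin and granzymes in secretory lysosomes. These granules are built on a serglycin matrix, matured through the endolysosomal pathway and, after contact with a target cell, carried to the membrane and fused with it. The 9 genes cover these steps. Srgn encodes the serglycin proteoglycan that holds the cargo, Ctsw the granule-associated cathepsin W, and Cst7 cystatin F, an inhibitor of the cathepsins that activate granzymes. Nkg7 and Lamp1 encode membrane proteins of the granule, Lamp1 being the CD107a marker of degranulation, and Ctsd encodes the lysosomal aspartyl protease cathepsin D. Lyst, mutated in Chediak-Higashi syndrome and the beige mouse, controls lysosome size. Rab27a is the GTPase that docks granules and Unc13d encodes Munc13-4, which primes them for fusion. Inherited loss of either impairs killing by lymphocytes.

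The genes lie on separate chromosomes except Nkg7 and Ctsd, both on chromosome 7 (GRCm38, GENCODE). Nkg7 spans 43437073 to 43438249 on the plus strand, and Ctsd spans 142375911 to 142388038 on the minus strand. Lyst, the longest of the 9, spans 13590397 to 13778803 on chromosome 13, and Lamp1 spans 13159161 to 13175338 on chromosome 8. Ctsw, Lamp1, Ctsd and Rab27a overlap other annotated genes, Fibp, Grtp1, Gm49369 and Gm27186 respectively. How the authors' counting treated reads in these overlaps is not given in the sources used here.

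RefSeq promoter windows (GRCm38.p6) were found for 7 of the 9 genes, not for Ctsw and Unc13d. The 250 bases before each transcript start were searched on both strands for the E-box CACGTG, the core of the element shared by many lysosomal genes. Of 32851 windows of the same length in the table, 6.02% held it at least once, and 7 windows (0.0213%) held it 4 or more times. Lamp1 is among the latter, with copies that begin 61, 45, 28 and 15 bases before the start, and Ctsd held 2 copies, 245 and 98 bases before it, where 0.429% of windows held 2 or more. A further copy lies 246 bases before the start of 1 of the Rab27a windows, inside the annotated gene. The stretches are shown because these are the membrane protein and the protease of the same compartment, of which Ctsd rose in Crep and Lamp1 did not pass the test. Capitals mark the E-box, the 90 bases of Lamp1 lie directly before the gene, and of the Ctsd stretches (30 bases each) the second lies inside the annotated gene.
Lamp1, chr8:13159071-13159160, plus strand: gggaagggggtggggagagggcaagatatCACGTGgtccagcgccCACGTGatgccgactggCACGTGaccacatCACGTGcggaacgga
Ctsd, chr7:142388048-142388077, minus strand: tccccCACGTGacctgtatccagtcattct
Ctsd, chr7:142387908-142387937, minus strand: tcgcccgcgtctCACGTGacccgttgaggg

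A palindrome common to STAT sites and the BCL6 consensus, TTCNNNGAA, was present in 7.02% of all windows and in those of Nkg7 (220 bases before the start) and Lyst (234 bases before it). Both matches are printed because the donors were given as Bcl6fl/fl or Bcl6fl/flCd8aCre, with the match in capitals and 30 bases in each stretch. They are letter matches and no record of binding. AGGTGTGA, a T-box sequence, was in 1.12% of all windows, in that of Nkg7 (14 bases before the start) and in 1 of the Rab27a windows. The Nkg7 match lies inside the annotated gene, whose GENCODE start is upstream of this RefSeq start. TGTGGTT, a RUNX sequence held by 4.40% of windows, was in 1 window each of Srgn and Rab27a, that of Srgn inside the annotated gene.
Nkg7, chr7:43436908-43436937, plus strand: ccccaaggtcTTCCAGGAAaccagttgtct
Lyst, chr13:13590165-13590194, plus strand: aggggtggagTTCAGAGAAgctgcacaggg

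The comparison over all cells asks how the granule and lysosome genes differed after transfer between CD8 T cells labelled Cren and Crep, taken as the donor genotypes. Lyst and Ctsd rose in Crep, by 1.64-fold and 1.56-fold. Nkg7 was 1.41-fold higher in Crep but did not pass the test over all genes, and the other 6 genes differed by at most 1.14-fold with overlapping hashtags. Levels are CPM of UMI counts summed per hashtag, scaled by TMM (trimmed mean of M values), and tests are edgeR's quasi-likelihood test with Benjamini-Hochberg adjustment over all 9653 genes tested. In sums over cells, fewer cells of a type and less RNA per cell cannot be told apart.

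Srgn, the granule matrix gene, did not pass the test. It stood at 1644, 1563, 1419 and 1520.3 CPM in Cren hashtags 1 to 4 and at 1589, 1616, 1475 and 1285 CPM in Crep. The lowest hashtag was Crep 4 and the highest Cren 1, with the rest interleaved. The log2 fold change (Crep minus Cren) was -0.04 (SE 0.09, edgeR adjusted p = 0.921), with a 95% interval of -0.23 to 0.14, and its sign turned to 0.02 without Crep hashtag 4.

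For cathepsin W the same groups lay at 1219 ± 77.8 and 1314 ± 74.8 CPM (SD, n = 4), from 1130.3 to 1319 CPM in Cren and from 1231 to 1412 CPM in Crep. Its log2 fold change was 0.11 (SE 0.08, edgeR adjusted p = 0.677). Cystatin F, which restrains granzyme-activating cathepsins, had 224, 268, 269.7 and 295 CPM of Cst7 in Cren and 284, 283, 268 and 362 CPM in Crep. Crep hashtag 4 lay above all others and the remaining values mixed. Its log2 fold change was 0.18 (SE 0.10, edgeR adjusted p = 0.556).

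Nkg7, a small membrane protein of cytotoxic granules, had 2304, 2346, 2998 and 1809.6 CPM in the Cren hashtags and 3169, 3290, 3334 and 3576 CPM in the Crep hashtags. The lowest Crep hashtag exceeded the highest Cren hashtag, which was Cren 3. The means were 2364 ± 488 and 3342 ± 171 CPM (SD, n = 4), which differed by 0.50 in log2 (SE 0.12, 95% interval 0.24 to 0.76). Over all genes the edgeR adjusted p was 0.0902. It was 0.00661 without Cren hashtag 3, 0.0497 without cluster 8 and 0.0140 in DESeq2, and above 0.05 under all others of 19 alternatives. NK cells also make Nkg7, and 4 of 5 NK and innate lymphoid markers had a row (Ncr1 had none): together they gave 53.0 to 131 CPM in Cren and 117 to 251 CPM in Crep. None of the 4 passed; Klre1 carried most of that sum, at 18.4 to 90.2 CPM in Cren and 90.6 to 206 CPM in Crep, while Klrb1c, Fcer1g and Tyrobp overlapped at 3.83 to 21.7 CPM. Their part in the Nkg7 difference was not tested.

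Lamp1, the other membrane protein, had 160.04, 170.3, 163 and 149 CPM in Cren and 162, 148, 145 and 149.7 CPM in Crep. Crep values were interleaved with Cren values, and the log2 fold change was -0.09 (SE 0.08, edgeR adjusted p = 0.735). Its 95% interval ran from -0.25 to 0.07 on the log2 scale, which does not reach the differences measured for Ctsd, Lyst or Nkg7.

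Ctsd, the gene of cathepsin D, rose in Crep. It stood at 299, 324, 405 and 241 CPM in Cren and at 478, 511, 474 and 518 CPM in Crep. The Crep hashtags lay within 44.4 CPM of each other and all above the Cren hashtags, among which Cren 3 was again the highest and Cren 4 the lowest, as for Nkg7. The means of 317 ± 67.9 and 495 ± 22.8 CPM (SD, n = 4) differed by 0.64 in log2 (SE 0.13, 95% interval 0.37 to 0.92, edgeR adjusted p = 0.0492). That p is close to the threshold: it rose to 0.0923 to 0.143 without Cren hashtag 1 or 2 or any of Crep hashtags 1 to 4, was 8.6e-04 without Cren 3 and 0.0231 without Cren 4. It was also above 0.05 without cluster 7, at 0.0599.

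Lyst, the lysosome-size regulator, had 59.0, 36.7, 49.5 and 46.0 CPM in Cren and 87.8, 83.2, 77.0 and 66.5 CPM in Crep. Every Crep hashtag exceeded every Cren hashtag, and here Cren 1 was the highest of its group and Crep 4 the lowest of its own. The values rest on 648 Lyst UMIs in Cren and 967 in Crep. The log2 fold change was 0.71 (SE 0.13, 95% interval 0.43 to 0.99, edgeR adjusted p = 0.0303). It passed in 13 of 19 alternatives, and the p was between 0.0770 and 0.0969 without Cren hashtag 4 or Crep hashtag 1, 2 or 3, and 0.0510 without cluster 8.

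Neither the docking nor the priming factor passed the test. Rab27a had 52.8, 42.0, 39.5 and 54.8 CPM in Cren and 52.3, 47.9, 42.5 and 68.4 CPM in Crep. The log2 difference was 0.15 (SE 0.15, edgeR adjusted p = 0.774). Unc13d had 31.4, 34.5, 43.1 and 31.0 CPM in Cren and 38.7, 37.3, 42.8 and 41.0 CPM in Crep. Here the log2 difference was 0.19 (SE 0.12, edgeR adjusted p = 0.609). For Unc13d it was Cren hashtag 3 that overlapped the Crep hashtags, being the highest of all 8. The 95% intervals on the log2 scale were -0.17 to 0.47 for Rab27a and -0.06 to 0.44 for Unc13d.

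**Figure D1:**
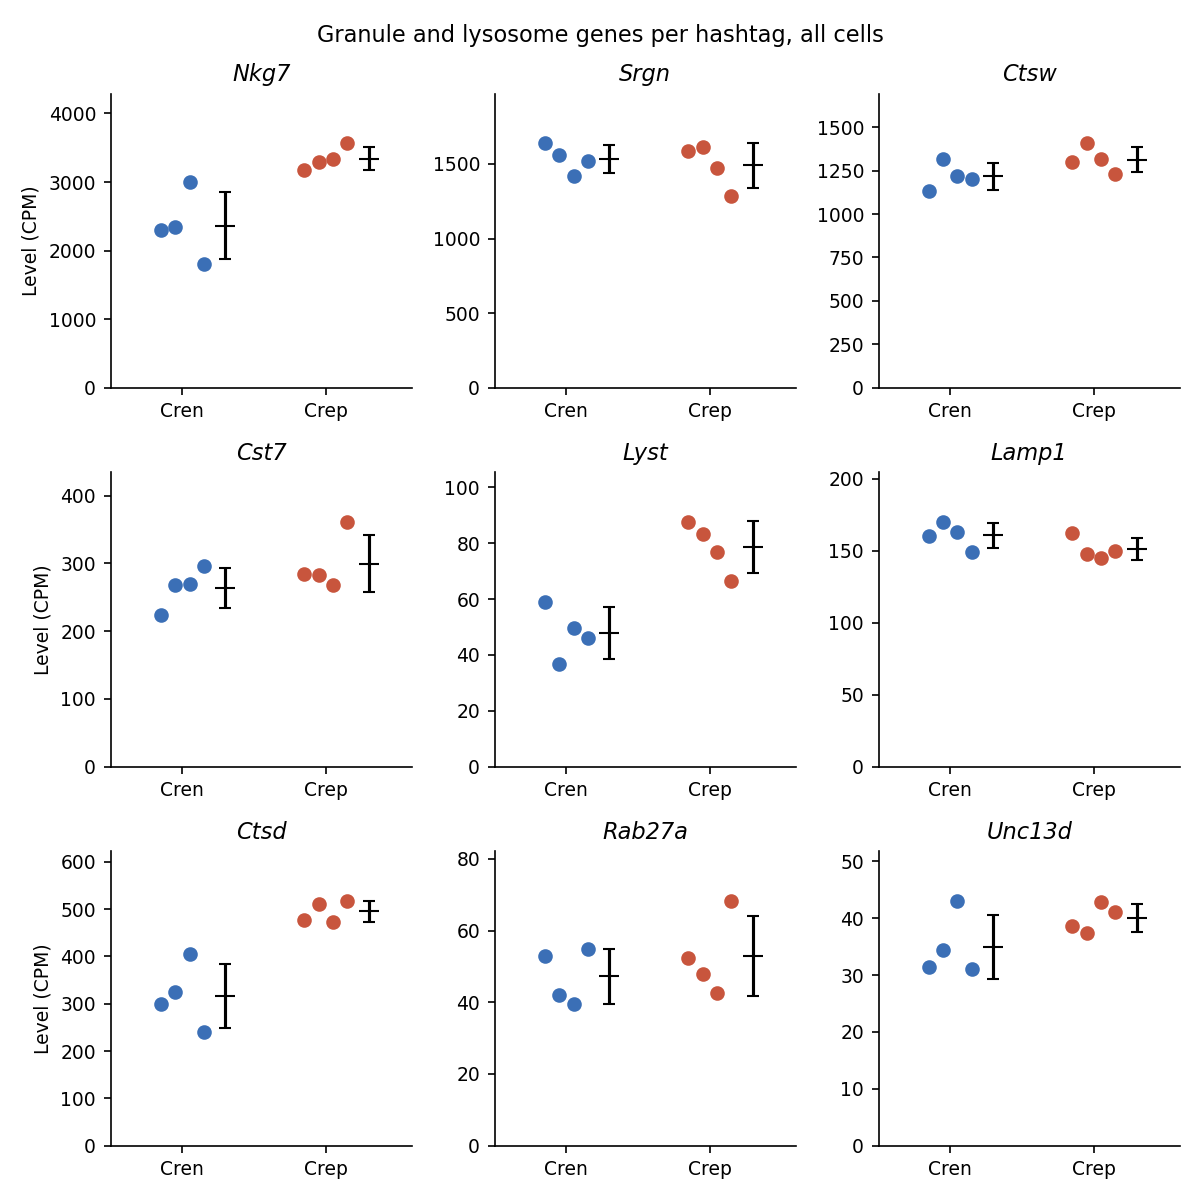
Level of each of the 9 genes (CPM, linear axis from 0) in the 4 Cren and 4 Crep hashtags, 1 point per hashtag, with the group mean and SD beside the points. Nkg7, Lyst and Ctsd are the genes whose Crep points all lie above their Cren points; the other 6 overlap.

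Of the 9 genes, 2 passed, both higher in Crep, beside 59 of 9653 genes (0.611%) in either direction and 0.342% higher in Crep. All Crep hashtags lay above all Cren hashtags for 3 of the 9, beside 3.44% of all genes tested. Positive log2 fold changes numbered 7 and negative ones 2, with a median of 0.18 beside -0.00059 over all genes. The 9 genes were chosen with earlier results of these data known. The shares over all genes, here and below, are therefore a description and no test of the set. Summed, the 9 genes gave 5910.1, 6167, 6544 and 5289 CPM (of all UMIs) in Cren and 7279, 7268, 7066 and 7287 CPM in Crep. The Crep sums lay within 221 CPM of each other, above every Cren sum. Nkg7 is the largest part of them, with means of 2358.5 CPM in Cren and 3323.9 CPM in Crep. Srgn and Lamp1 were lower in Crep, so the sums do not stand for a rise of all 9 genes.

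The share of cells with a UMI was compared next. Each cell was thinned to 2000 UMIs, which kept 3468 Cren and 3171 Crep cells and left out 937 and 986 shallower ones. A Ctsd UMI was then found in 42.5%, 46.2%, 52.0% and 37.6% of cells in the Cren hashtags and in 57.2%, 58.2%, 58.7% and 62.8% in the Crep hashtags, which do not overlap. Nearly every cell had an Nkg7 UMI, at 94.0% to 98.7% in Cren and 99.2% to 99.6% in Crep, so for this gene the share is close to its ceiling. Lyst was found in 6.73% to 10.5% of Cren cells and 11.1% to 14.5% of Crep cells, and Unc13d in 5.15% to 7.10% and 7.26% to 8.23%.

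Those 4 genes had all Crep hashtags above all Cren hashtags, beside 2.98% of all genes tested. At a depth of 1500 UMIs the number was 3, without Unc13d, and with no thinning it was 1, Ctsd. Srgn (89.2% to 95.1% in Cren, 89.8% to 95.2% in Crep) and Lamp1 (25.3% to 29.7% and 25.6% to 28.0%) overlapped widely. All cells in the table are CD8 T cells by label and no type that should lack these genes is among them, so the share that free RNA gives could not be read off. Cells with UMIs of both Nkg7 and Ctsd made up 35.6% to 51.2% of each Cren hashtag and 56.8% to 62.3% of each Crep hashtag, at the same depth. Since nearly every cell had an Nkg7 UMI, this joint share largely repeats the Ctsd share and is no separate result. A thinned cell had UMIs of 4.01 to 4.21 of the 9 genes on average in Cren hashtags and 4.36 to 4.49 in Crep.

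Within clusters, Nkg7, Ctsd and Lyst had positive log2 fold changes wherever they were tested. Of the 12 fine clusters, 6 had 3 or more hashtags per group with a minimum of 20 cells each: clusters 0, 1, 2, 3, 5 and 6. Clusters 0 and 2 have Itgae, the resident-cell integrin, among their leading genes, cluster 1 heat-shock genes, cluster 3 Rgcc, Socs2 and Gzmb, cluster 5 Tnfrsf25 and S1pr1, and cluster 6 Nr4a1. The comparison asks whether levels differed between groups among cells of a like state. The clusters were cut from the same hashtags, so the same sign in all 6 is not a set of separate replications. For Nkg7, Cren hashtag 3 was the highest and Cren hashtag 4 the lowest of the Cren hashtags in each of the 6. The share of all genes with the same sign, or an unadjusted p under 0.05, in all 6 is not given here.

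Nkg7 had a positive log2 fold change in 6 of 6 clusters, from 0.19 to 0.52, and passed in 2. In cluster 0 it stood at 2385, 2328, 3055 and 1971 CPM in Cren and 3150.3, 3469, 3322 and 3519 CPM in Crep. No Crep hashtag fell below a Cren hashtag there, beside 2.37% of genes in that cluster. The log2 fold change was 0.47 (SE 0.10, edgeR adjusted p = 0.0118, beside 0.98% of 5409 genes called). In cluster 2 the values were 1831, 2050.1, 2258 and 1652 CPM in Cren and 2938, 2911, 2860 and 2381 CPM in Crep, again without overlap (beside 1.94% of genes), and the log2 difference was 0.52 (SE 0.11, edgeR adjusted p = 0.0211, beside 0.28% of 4995 genes). In cluster 0 the call was lost without Cren hashtag 1 (0.0572) or 2 (0.0520) or Crep hashtag 2 (0.0895) or 3 (0.0782). In cluster 2 it was lost without Cren hashtag 1 (0.171) or Crep hashtag 1 (0.0780), 2 (0.145) or 3 (0.128).

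Ctsd was likewise positive in 6 of 6 clusters, from 0.21 to 0.89, and passed in cluster 5. There it had 256, 290.1, 337 and 180.5 CPM in the 4 Cren hashtags and 445, 453 and 535 CPM in Crep hashtags 1 to 3, with Crep hashtag 4 left out because it had 19 cells. The groups did not overlap, beside 4.48% of genes with all Crep hashtags above, and the log2 fold change was 0.89 (SE 0.15, n = 4 and 3, edgeR adjusted p = 2.3e-04, beside 1.19% of 4044 genes called). In the 2 largest clusters the log2 fold change was smaller, 0.21 (SE 0.12, edgeR adjusted p = 0.695) in cluster 0 and 0.36 (SE 0.13, edgeR adjusted p = 0.523) in cluster 1.

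Lyst had a positive log2 fold change in 6 of 6 clusters, from 0.53 in cluster 3 to 0.93 in cluster 0. Its unadjusted p was under 0.05 in all 6. Among all genes such a p, in either direction, was found for 8.58% in cluster 0, 6.45% in cluster 1, 6.13% in cluster 2, 5.74% in cluster 3, 10.3% in cluster 5 and 5.71% in cluster 6. The lowest edgeR adjusted p of Lyst was 0.122, so no cluster was called. The counts are small there: cluster 0 held 49 Lyst UMIs in Cren and 89 in Crep. Without Cren hashtag 1 the edgeR adjusted p in cluster 1 was 0.0182. With a minimum of 10 cells per hashtag, clusters 4 and 9 could be tested too. In cluster 4 the log2 fold changes were 0.29 for Nkg7, 0.33 for Ctsd and 0.17 for Lyst, none of them called. In cluster 9 only Nkg7 (0.07), Srgn (-0.07) and Ctsw (-0.09) had enough counts, and none was called.

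Of the other 6 genes none passed in any cluster, and Ctsw had an unadjusted p under 0.05 in 2. Ctsw was positive in 6 of 6 clusters (0.02 to 0.30) and Lamp1 negative in 6 of 6 (-0.21 to -0.07), with lowest edgeR adjusted p of 0.266 and 0.768. Srgn was positive in 3 of 6, Cst7 and Rab27a in 4 of 6, and Unc13d in 2 of the 4 clusters that had enough counts. Cluster 3 had 0 genes called of 4548 by edgeR (261 genes with an unadjusted p under 0.05), and the share called was 0.173% in cluster 1 and 0.0269% in cluster 6.

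**Figure D2:**
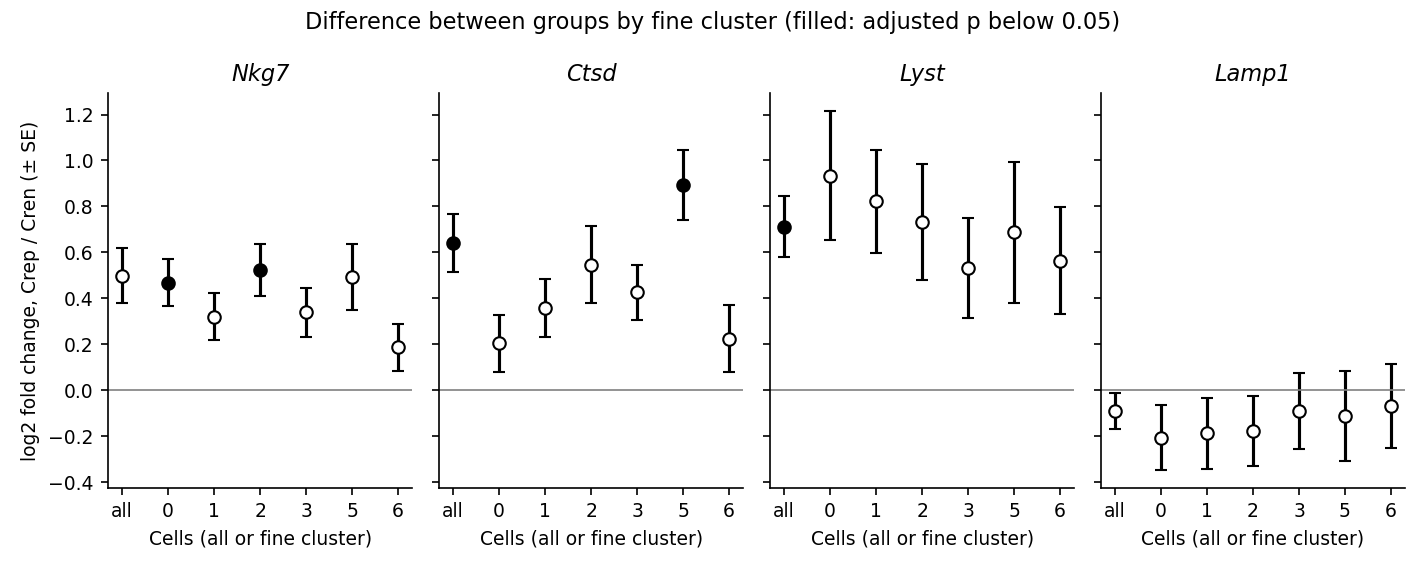
Log2 fold change between Crep and Cren with its SE for Nkg7, Ctsd, Lyst and Lamp1, over all cells and in each of the 6 fine clusters tested; filled points have an edgeR adjusted p below 0.05. Nkg7, Ctsd and Lyst lie above 0 in every cluster shown and Lamp1 below 0.

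Whether the effect differed between clusters was tested directly. Between clusters 0 and 1, the 2 largest, 0 of the 9 genes passed the edgeR interaction test, in which 8 of 6080 genes (0.132%) passed. Unadjusted p was under 0.05 for Nkg7 (0.0391), Ctsw (0.0144) and Rab27a (0.0371), beside 6.37% of the 6080 genes. limma-voom also called 0. Over all 6 clusters together 0 of the 9 passed, beside 0.0751% of 6656 genes, with unadjusted p of 0.0138 for Nkg7 and 0.00261 for Ctsd. An unadjusted p under 0.05 was found there for 5.75% of genes.

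Because the cluster mix differed between the groups, the part of each ratio that the mix alone gives was computed by assigning every cluster 1 level per gene and letting only its share of each hashtag's UMIs vary. For Ctsd the mix alone gave a log2 ratio of 0.34 beside the 0.64 measured. For Nkg7 it gave 0.19 beside 0.50, for Lyst 0.17 beside 0.72, and for Lamp1 0.01 against -0.09 measured. For Unc13d the mix gave 0.15 beside 0.19 measured, for Rab27a 0.13 beside 0.16, and for Srgn -0.05 beside -0.05. The level of each cluster is pooled over both groups, so it carries any difference between the groups in a cluster held mostly by 1 of them, such as cluster 7.

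**Figure D3:**
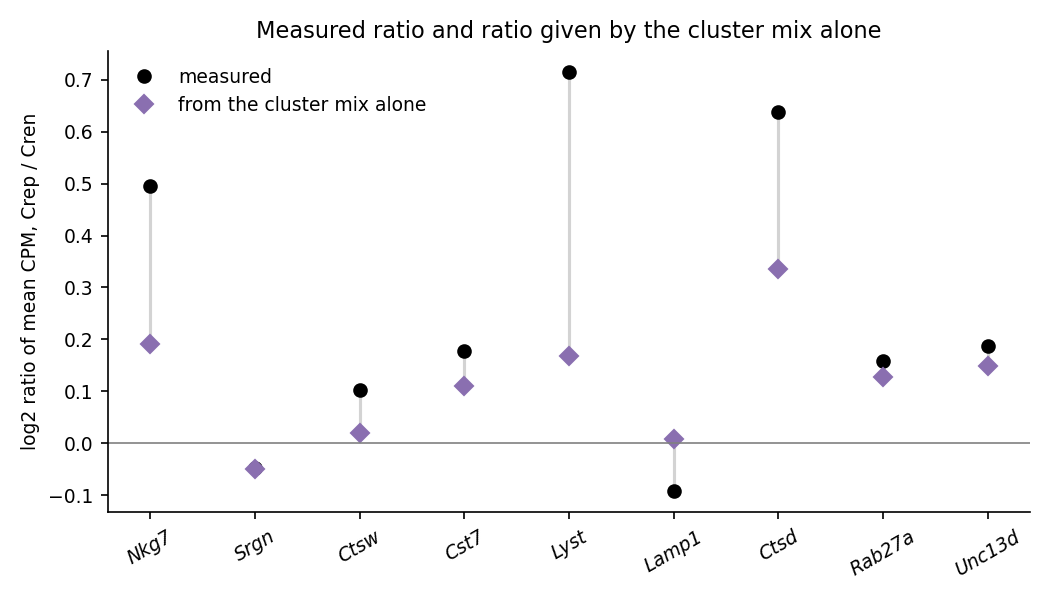
Log2 ratio of mean CPM between Crep and Cren for each of the 9 genes, as measured (circles) and as given by the shares of UMIs from each fine cluster alone (diamonds). The gap is widest for Lyst (0.72 measured, 0.17 from the mix).

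With the mix held fixed over the 8 clusters that had at least 10 cells in every hashtag, levels per hashtag were 67.9, 36.5, 57.8 and 55.1 CPM for Lyst in Cren and 90.5, 80.8, 75.1 and 83.6 CPM in Crep, without overlap. The log2 fold change of Lyst was then 0.62 (SE 0.15, limma adjusted p = 0.0897). That of Ctsd was 0.37 (SE 0.09, limma adjusted p = 0.0637), with 298 to 388 CPM in Cren and 417 to 471 CPM in Crep. Nkg7 had 0.40 (SE 0.10, limma adjusted p = 0.225), with 1797 to 2787 CPM in Cren and 3012 to 3166 CPM in Crep. Ctsd and Nkg7 thus did not overlap either, nor did Ctsw, at 1084 to 1303 CPM in Cren and 1309.5 to 1371 CPM in Crep. The share of all genes without overlap in this fit is not given here. None of the 9 passed in this fit, in which 25 of 9653 genes did.

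Across the clusters the 9 genes peaked in different places. The clusters were made from these genes among others, so the levels are a description with no test. They are given per cluster over all hashtags summed (plain CPM of all UMIs), and the mean and SD are over hashtags with at least 20 cells. Neighbours in the order of levels differed by more than the larger of their SDs in 7 of 72 comparisons over the 9 genes, so only the ends of each order are described.

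Nkg7 was highest in cluster 7 (3926 ± 139 CPM, n = 4), which Crep cells dominate, and in cluster 4 (3685 ± 315 CPM, n = 6), where S1pr5, Cx3cr1, Klrg1 and Gzma lead. It was lowest in cluster 9, at 1285 CPM, and next in cluster 2, at 2224 ± 485 CPM (n = 8). The highest level was 3.00 times the lowest, and none of its 8 neighbour pairs differed beyond the larger SD. Ctsd was also high in clusters 4 and 7, with 614 and 604 CPM over all hashtags summed and hashtag means of 609 ± 81.3 CPM (n = 6) and 627 ± 92.5 CPM (n = 4), so the clusters have no order between them. The hashtags behind these means differ: cluster 7 rests on 4 Crep hashtags and no Cren hashtag, cluster 4 on 2 Cren and 4 Crep, and cluster 3, with 447 ± 86.8 CPM, on 4 of each. Within Crep alone, Ctsd stood at 627 ± 92.5 CPM in cluster 7, 655 ± 39.7 CPM in cluster 4 and 515 ± 43.6 CPM in cluster 3 (SD, n = 4). In Cren it stood at 480.2 and 553 CPM in the 2 hashtags of cluster 4 and at 379 ± 57.7 CPM in cluster 3 (SD, n = 4). For Nkg7 within Crep the levels were 3926 ± 139 CPM in cluster 7, 3867 ± 181 CPM in cluster 4 and 3246 ± 249 CPM in cluster 3 (SD, n = 4). Cluster 8 came near these Nkg7 levels, with 3879 CPM in its 1 Crep hashtag of at least 20 cells. Within Cren, Nkg7 stood at 3227 ± 352 CPM in cluster 8 (SD, n = 4) and at 3297 and 3347 CPM in the 2 hashtags of cluster 4. The lowest Ctsd level among clusters with enough hashtags was in cluster 2, at 247 ± 71.5 CPM (n = 8).

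Srgn ran otherwise. It peaked in cluster 11, where Xcl1, Ccl1 and Penk lead, at 2976 CPM (73 cells, 952 UMIs, Poisson 95% interval 2790.1 to 3171 CPM, which covers counting error only). Cluster 2, with 1941 ± 131 CPM (n = 8), came next among clusters with replicates, a step beyond the SD above cluster 0. Cathepsin W was highest in cluster 0, at 1790.3 ± 120.5 CPM (n = 8), and low in cluster 8, the cluster led by Maf, Tox and Pdcd1, at 788 ± 172 CPM (n = 5). Cst7 ranged from 371 ± 60.04 CPM (n = 4) in cluster 7 to 153 ± 26.0 CPM (n = 7) in cluster 5, apart from cluster 9. Lamp1 varied least, with 1.76 times between its highest and lowest cluster.

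Lyst stood apart in cluster 9. Its level there was 271 CPM (47 UMIs in 119 cells, Poisson 95% interval 199 to 360.05 CPM), 4.39 times that of all other cells, and Rab27a stood at 2.23 times (19 UMIs). The other 7 genes were lower in cluster 9 than in other cells, at 0.31 to 0.65 times. Cells of cluster 9 were shallow, with a median of 1007 UMIs and a mitochondrial share of 2.04%, and their leading genes Gm26917, Rfx3 and Smad3 name no cell type. Depth and RNA quality move with this level, and their part was not tested. In the other clusters Lyst was highest in clusters 6 (84.9 ± 32.4 CPM, n = 8) and 3 (83.3 ± 25.2 CPM, n = 8) and lowest among replicated clusters in cluster 0 (36.8 ± 15.6 CPM, n = 8). Clusters 10 and 11 held 8 and 7 Lyst UMIs.

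Among clusters with replicates, the docking factors varied as follows. Rab27a ran from 38.9 ± 10.5 CPM in cluster 1 to 82.7 ± 40.6 CPM in cluster 8, with no neighbour pair beyond the larger SD. The cluster 8 mean includes 1 Crep hashtag at 149 CPM, beside 66.0 ± 18.8 CPM in Cren (SD, n = 4). Over all hashtags summed, Rab27a stood at 62.6 CPM in cluster 8, 64.7 CPM in cluster 4 and 61.5 CPM in cluster 7. Unc13d ran from 22.7 ± 10.3 CPM in cluster 2 to 53.4 ± 21.9 CPM in cluster 7, and only cluster 2 stood below its neighbour beyond the SD. Over all hashtags summed, Unc13d was highest in cluster 4, at 47.0 CPM, and stood at 39.3 CPM in cluster 7.

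**Figure D4:**
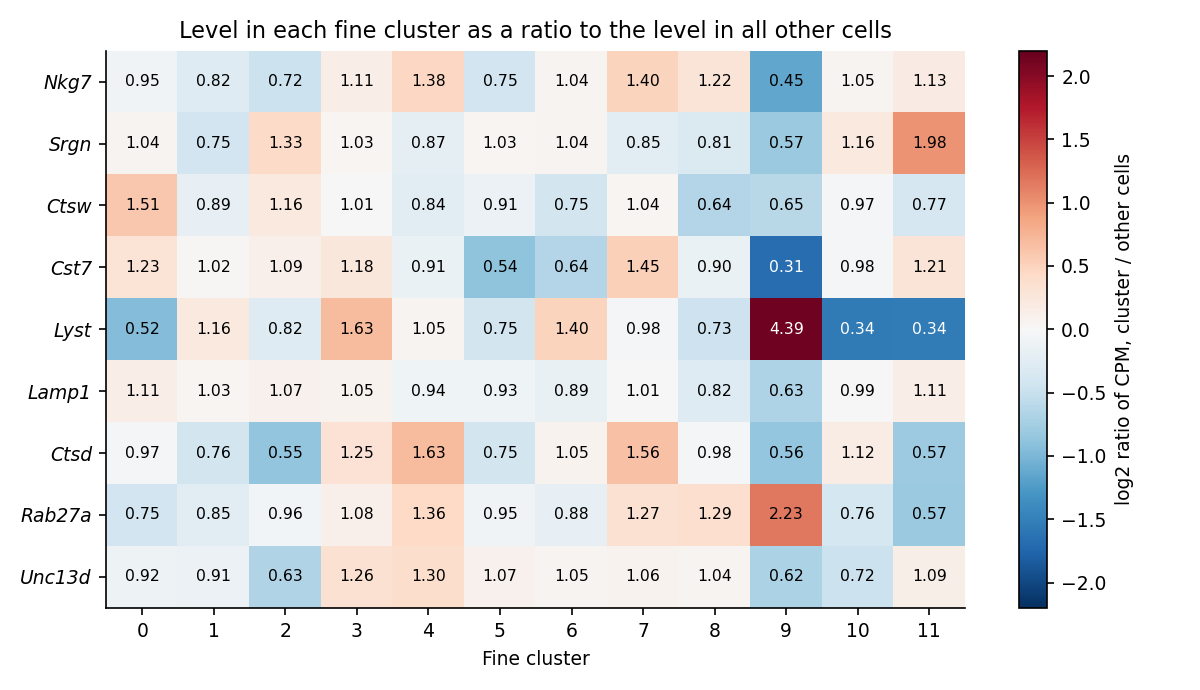
Level of each gene in each of the 12 fine clusters as a ratio to its level in all other cells; numbers are ratios and colours their log2. Nkg7 and Ctsd share high values in clusters 4 and 7, and the highest ratio is that of Lyst in cluster 9 (4.39).

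Over the 12 clusters Pearson correlations of log2(CPM + 1) between the genes ranged widely, and cluster 9 set many of them. Nkg7 and Ctsd had r = 0.75 over 12 clusters and 0.71 over 11 without cluster 9. Lyst and Rab27a had 0.83 and 0.64. Srgn ran opposite to Rab27a, at -0.85 and -0.76, while the correlation of Nkg7 with Cst7 went from 0.76 to 0.38. Points share the library and the depth of their cells, so these values describe the clusters and carry no p.

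Among other genes of at least 50 CPM, those most like each gene over the 12 clusters were 1110008P14Rik (r = 0.94), Jpt1 and Cers2 for Nkg7, of which Cers2 (0.90) also was among the 3 without cluster 9. For Ctsd they were Ifi35 (r = 0.93), Unc119 and Insl6, with Ifi35 (0.92) again among the 3 without cluster 9. For Lyst they were Ppp1r12c (r = 0.92), Dennd4c and Ttc7 (0.92), the same 3 genes without cluster 9, at 0.85 to 0.88. Ctsw was most like Med10 (0.96), Cst7 like Lta4h (0.96), Lamp1 like Ndufc1 (0.98), Rab27a like Usp25 (0.98), Unc13d like Bak1 (0.84) and Srgn like Polr2k (0.94). Without cluster 9 the first gene stayed the same for all of these but Srgn. For Srgn it was then Bcl2a1d (0.95), and Polr2k was not among the 3.

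The rest of the pathway was covered by lists, without a set test. Of 91 genes on 6 lists of granule cargo, docking, biogenesis, BEACH proteins, lysosomal proteins and cystatins, 84 had a row and 79 were tested. The edgeR test called 0 of the 79, beside 0.611% of all genes. With so low a share few calls would be expected among 79 genes, so the 0 is no result about the pathway. All Crep hashtags lay above all Cren hashtags for 7 of the 79, beside 3.44% of all genes tested, and below them for 2. An unadjusted p under 0.05 was found for 12 of 79 (15.2%; 8 higher and 4 lower in Crep), beside 11.1% of all genes. DESeq2, which called 143 of 9653 genes, called 2 of the 79, Gzmb and Npc1, and edgeR without the filter on low counts, with 71 of 12798 genes called, called Npc1. The median log2 fold change of the 79 was 0.03.

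Granule cargo had the highest median, 0.62, with 7 of 8 genes positive. Gzmb, granzyme B, had 1548, 833, 1392 and 463 CPM in Cren and 3694, 2674, 2535 and 3688 CPM in Crep. All Crep hashtags exceeded all Cren hashtags, among which the values spread 3.35-fold, and the log2 fold change was 1.57 (SE 0.40, edgeR adjusted p = 0.227). Gzma, granzyme A, at 1.07 (SE 0.44, edgeR adjusted p = 0.446), and Gzmk, granzyme K, at 0.67 (SE 0.28, edgeR adjusted p = 0.455), overlapped between the groups. Ctsc, which activates granzymes, was the 1 cargo gene with a negative log2 fold change, -0.17.

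Docking and fusion genes were split, 7 positive and 7 negative of 14, with a median of -0.003. Sytl2, a synaptotagmin-like protein that binds Rab27, was highest among them: 46.4, 44.8, 53.5 and 35.6 CPM in Cren against 73.8, 57.0, 61.9 and 57.4 CPM in Crep. The groups did not overlap, and the log2 fold change was 0.47 (SE 0.12, edgeR adjusted p = 0.106). Snap23, a fusion SNARE, stood at -0.22 and Sytl3 at -0.16, both with overlapping hashtags. Granule biogenesis and movement genes had a median of 0.03 (17 of 27 positive), with Was at 0.18, M6pr, the mannose 6-phosphate receptor, at 0.15 and Rab11a at 0.09.

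BEACH proteins are the family that Lyst belongs to, and 1 of 4 tested was positive, with a median of -0.13. Lrba stood at -0.17, Nsmaf at -0.10 and Nbeal2 at 0.15, against 0.71 for Lyst itself. Cystatins beside Cst7 were near 0, at -0.10 for Cst3 and -0.05 for Cstb.

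Lysosomal genes had a median of 0.09 with 15 of 24 positive, and values in either direction. Npc1, the lysosomal cholesterol exporter, had 21.6, 16.5, 21.1 and 23.4 CPM in Cren and 27.6, 38.2, 26.7 and 38.4 CPM in Crep, all above Cren, and the log2 difference was 0.67 (SE 0.15, edgeR adjusted p = 0.0660). Ctss, cathepsin S, was at -0.39 (SE 0.12, edgeR adjusted p = 0.192). An unadjusted p under 0.05 was reached by 4 higher and 4 lower of these 24 genes (33.3%, beside 11.1% of all genes).

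**Figure D5:**
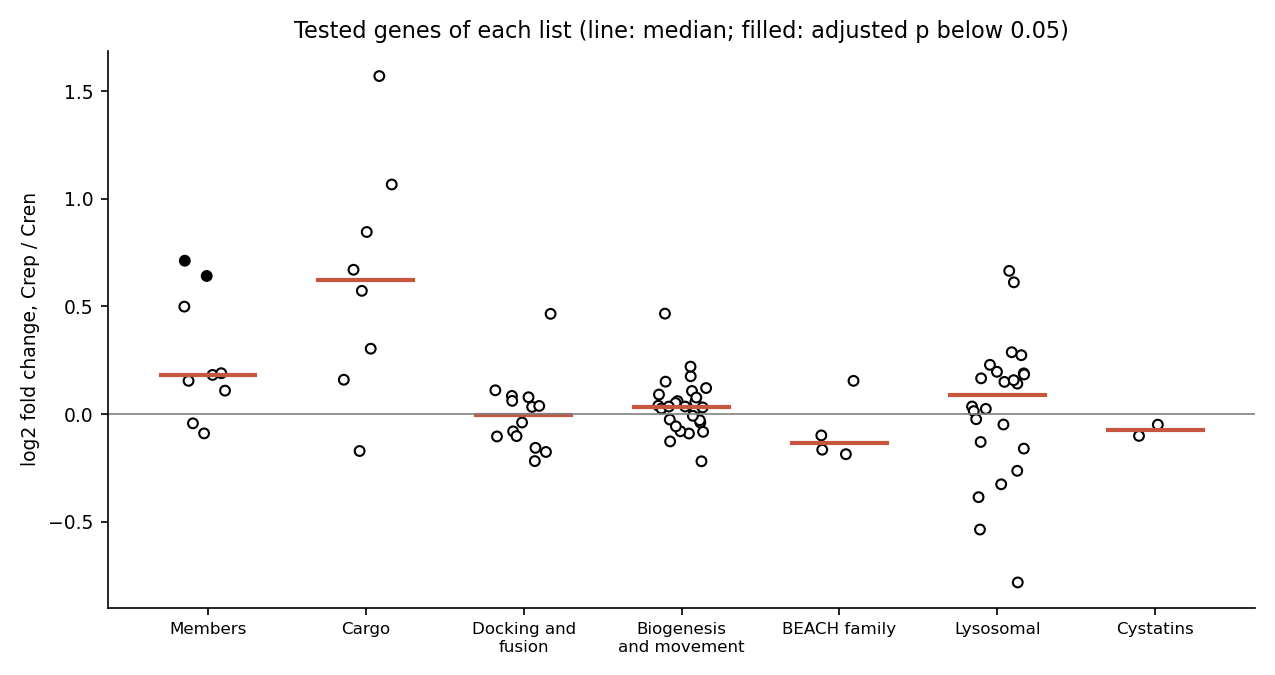
Log2 fold change between Crep and Cren of every tested gene in the 9 members and in the 6 pathway lists; the line is the median of each list and filled points have an edgeR adjusted p below 0.05. The 2 filled points are Lyst and Ctsd; cargo has the highest median (0.62).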

How the data were processed

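CD8 T cells of 8 hashtags (4 Cren, 4 Crep) were measured in 1 gene expression library. The deposited table holds UMI counts, not normalized by the authors, with genes in rows and cells in columns; the sum of a cell equalled its deposited total count in 100% of cells. The mitochondrial percent per cell is also as deposited by the authors. Gene number per cell had a minimum of 500 and the mitochondrial share a maximum of 3.0%, and no further cell was removed. The submitters' processing notes name the build mm10 and, without roles, the tools Seurat 4.3.0, Cell Ranger 7.0.0 and bcl2fastq 2.20.0.422. Hashtag, group and fine cluster of each cell come from the deposited annotation. No doublet caller was run, hashtag calls stand as deposited, and 0 cell barcodes occurred more than once. For 115 cells the hashtag classifiers did not agree on the annotated hashtag.

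Counts were summed per hashtag (and cluster) and tested with edgeR 4.0.16 (R 4.3.3, TMM, filterByExpr, robust quasi-likelihood, Benjamini-Hochberg over all genes tested, threshold 0.05), with limma 3.58.1 and DESeq2 1.42.0 as alternatives. The test and the thinning were tested on simulated data. Between-group levels are TMM-scaled CPM, and levels by cluster, summed levels and the cluster mix use plain CPM of all UMIs. The fit with the mix held fixed is on log2(CPM + 1), which understates changes of low genes. All 9 genes are named. Of the pathway lists, genes that pass and the 3 of smallest p per list among those of average log2 CPM of at least 4 are named, and Ctsc was added after its value was seen. A further gene that this rule names is not reported here. The 9 genes and the lists were chosen with earlier results of these data known. Gene positions are from GENCODE vM21. Figures were drawn with matplotlib 3.10.9, and other steps used pandas 2.3.3, scipy 1.17.1 and numpy 2.4.6 in Python 3.11.15.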

Additional observations from a re-analysis of the deposited data

Results flagged for a closer look

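Of 69 sets of 4 hashtags examined, 4 held a hashtag far from the rest, where chance alone would be expected to mark about 1 in 20. The measure is the gap to the nearest hashtag divided by the range of the 4, against a limit of 0.829. Ctsd in fine cluster 1 had a low Cren hashtag 4, at 266 CPM against 330.3 to 336 CPM in the other 3 (gap over range 0.921). Lyst in fine cluster 0 had a low Crep hashtag 3, at 29.6 CPM against 54.8 to 59.1 CPM (0.855), and in fine cluster 1 a low Crep hashtag 4, at 74.7 CPM against 117 to 125 CPM (0.838). Nkg7 in fine cluster 2 had a low Crep hashtag 4, at 2381 CPM against 2860 to 2938 CPM (0.859). These 4 hashtags do not include the Cren hashtag 3 that was highest for Nkg7 and Ctsd over all cells.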

How the results depend on the processing

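Over all cells, 2 of the 9 genes passed, and the number was 2 with limma-voom, DESeq2-type size factors, plain totals, no filter on low counts, agreed hashtags only, and without cluster 8 or 10. It was 3 with DESeq2, 1 without cluster 7, 0 with the cluster mix held fixed, and 0 to 3 when 1 hashtag was left out. Within clusters 3 calls were made, 1 to 5 with 1 hashtag left out. The interaction called 0 throughout. Pathway genes called numbered 0, against 1 without the filter, 2 with DESeq2 and 0 to 1 with 1 hashtag left out (added after seeing the data; the 1 is without Cren hashtag 3). Genes whose shares did not overlap numbered 4, against 1 with no thinning, and 4 to 5 with 1 hashtag left out (also added after seeing the data). Srgn changed sign, to 0.00071 with the mix held fixed and 0.0228 without Crep hashtag 4, within a range of -0.0858 to 0.0228 when 1 hashtag was left out. Counts of genes called over the whole table were 59 in the edgeR test, 143 in DESeq2 and 37 in limma-voom.

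Hashtag numbers are shared between the groups, and same-numbered hashtags had r = -0.047, 0.148, 0.182 and 0.123 across genes, against -0.172 to 0.211 between different numbers. Since 1 of the 4 was not above 0.1, the numbers were not taken as pairs. With the replicate block, 1 gene passed and 103 genes were called in the whole table; Ctsd had an adjusted p of 0.0670. No hashtag is known to pair by animal. The alternative without expanded clonotypes was not run, since no clonotype column was analysed here. Depth limits Lyst, Rab27a and Unc13d most, with at most 967 UMIs per group, and clusters 4, 7, 8, 9, 10 and 11 were not tested because fewer than 3 hashtags of a group had 20 cells there.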
